A study of Mus musculus with 4 samples.

Results

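The nuclei described here are cardiomyocyte nuclei of the mouse heart that carry transcripts of 5 genes enriched in atrial muscle. A nucleus was selected when Ttn, Ryr2 and Myh6, which encode titin, the ryanodine receptor and alpha myosin heavy chain of heart muscle, together made up at least 3% of its UMIs (unique molecular identifiers, which count RNA molecules). It also had to hold at least 4 UMIs summed over Kcnj3, Kcnh7, Mybphl, Myl7 and Sln, and at most 1 UMI summed over Pdgfra, Cdh5, Pdgfrb and Mrc1, which mark fibroblasts, endothelial cells, pericytes and macrophages. This selected 3286 of the 38134 nuclei that passed the quality filter. The cardiomyocyte gate, which is the same rule without the requirement on the 5 genes, held 10106 nuclei. The values of these 12 genes chose the nuclei. They stayed in the fits across all genes, but no test of them is read as a result.

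Each library was made from 1 whole heart of a male wild-type C57BL/6J mouse that had been injured at day 1 post partum and was taken 21 days post injury. The fathers of 2 of the hearts had themselves been injured (injured-father libraries 1 and 2), and the fathers of the other 2 had not (uninjured-father libraries 1 and 2). All 4 offspring were injured, so the series compares fathers and holds no uninjured heart. The hearts were snap frozen, blood cells were sorted out with a Ter119 antibody, and 3' end libraries were made in droplets with 10000 nuclei as the target for each heart. Each library is a single heart, and no source used here gives the litters or names the fathers, so p-values can speak only of these hearts. Those of edgeR rest on a spread estimated with information shared across genes. They do not rest on the spread of each gene between the hearts alone.

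Atrial muscle fills the ventricles under low pressure and differs from ventricular muscle in its light chains, channels and secretion. Its cells store atrial natriuretic peptide, the product of Nppa, and release it when stretched, which promotes salt and water loss. They carry the muscarinic potassium current, in which acetylcholine from the vagus nerve acts on the M2 receptor Chrm2 and G-protein subunits open channels built from the Kcnj3 and Kcnj5 products. Tbx5 is a T-box transcription factor that maintains the atrial programme, and Bmp10 is known as a gene of the right atrium.

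The selected nuclei numbered 823 and 955 in the injured-father libraries and 1082 and 426 in the uninjured-father libraries, in order of library number. Their summed counts were 5218246, 6559000, 7567083 and 2228808 UMIs, and their median depths were 5468, 6019, 6055.5 and 4592.5 UMIs per nucleus. Uninjured-father library 2 was the smallest and shallowest. Doublets marked by Scrublet were kept and made up 7.12% to 11.5% of the selected nuclei by library. The libraries share 157 barcodes, and 21 selected nuclei have a barcode that occurs in another library, but no barcode was selected in more than 1 library.

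The label of atrial cardiomyocyte did not hold for most of the selected nuclei. Kcnj3, which encodes the GIRK1 channel subunit, supplied 89.9% of the UMIs of the 5 genes in them, and the number of UMIs per nucleus fell off smoothly across the threshold. There were 1472 nuclei with 2 UMIs and 1042 with 3 UMIs just outside it, against 738 with 4 UMIs and 522 with 5 UMIs just inside it. A smaller group of nuclei lay far above. To show both, the selected nuclei are given in a lower range of 4 to 19 UMIs, with 2761 nuclei, and an upper range of 20 or more UMIs, with 525 nuclei. The limit of 20 was set after the values had been seen.

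**Figure D1:**
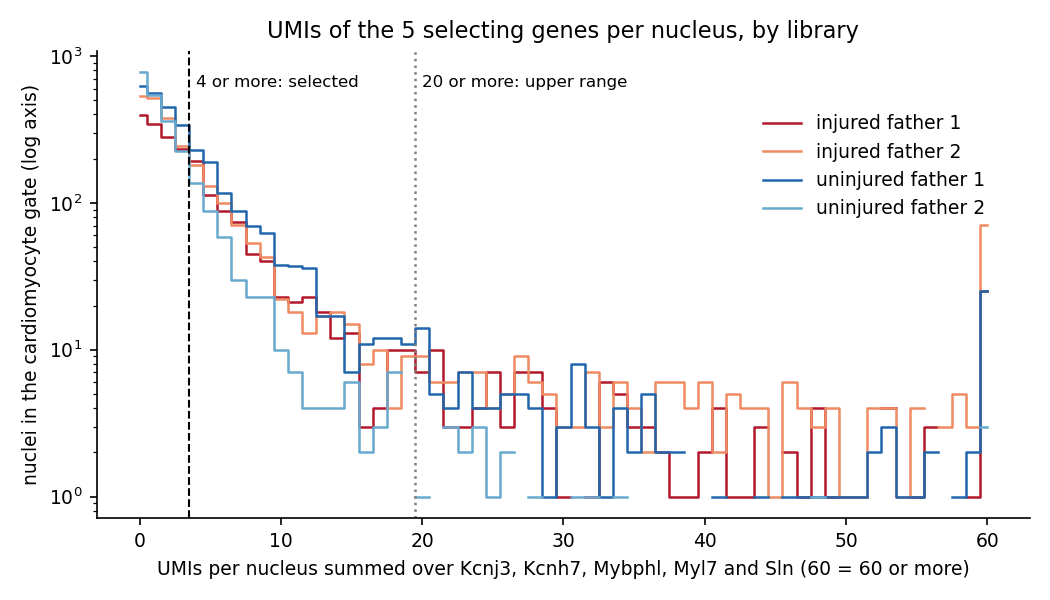
Number of nuclei in the cardiomyocyte gate (vertical axis, log scale) by UMIs summed over Kcnj3, Kcnh7, Mybphl, Myl7 and Sln (horizontal axis, with 60 or more in the last bin), for each library. The counts fall without a break through the threshold of 4 UMIs, and the nuclei with 20 or more UMIs number 133, 244, 128 and 20 in the 4 libraries.

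Genes outside the rule showed where atrial identity began. A list of 17 atrial genes and a list of 9 ventricular genes, none of them used in the selection, were summed in each nucleus. The atrial list held more UMIs than the ventricular list in 5.29% of the 4306 nuclei of the same gate with 0 or 1 UMI of the 5 genes (low nuclei below). The share was 5.99% in nuclei with 4 to 7 UMIs, 12.9% with 8 to 11, 43.2% with 12 to 19, 89.5% with 20 to 39 and 99.2% with 40 or more. In all, 822 of the 3286 selected nuclei had more atrial than ventricular UMIs, which is 25.02% (Wilson 95% interval 23.6 to 26.5). By library the share was 27.6%, 33.3%, 20.2% and 13.6%. It was 11.9% in the lower range and 93.9% in the upper range. The selected nuclei as a whole are therefore called by their rule here, and only the upper range by its atrial genes. Wilson intervals in this account cover counting error only.

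Nppa and Tbx5, the markers of the label that the rule did not use, kept near the level of the low nuclei up to 7 UMIs and stood higher in each range above. Levels are given as CPM, the UMIs of a gene per 1000000 UMIs summed over nuclei. Nppa stood at 50.1 CPM in low nuclei, 35.7 CPM with 4 to 7 UMIs, 60.2 with 8 to 11, 239.6 with 12 to 19, 785 with 20 to 39 and 1038 with 40 or more. Tbx5 stood at 99.1 CPM in low nuclei, 116 CPM with 4 to 7 UMIs, 159 with 8 to 11, 319 with 12 to 19, 889 with 20 to 39 and 1224 with 40 or more. Both genes thus changed little across the ranges that hold most of the selected nuclei. Myl2, the ventricular regulatory light chain, went the other way, from 1060 CPM in low nuclei through 938 CPM with 4 to 7 UMIs to 148 CPM with 40 or more.

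**Figure D2:**
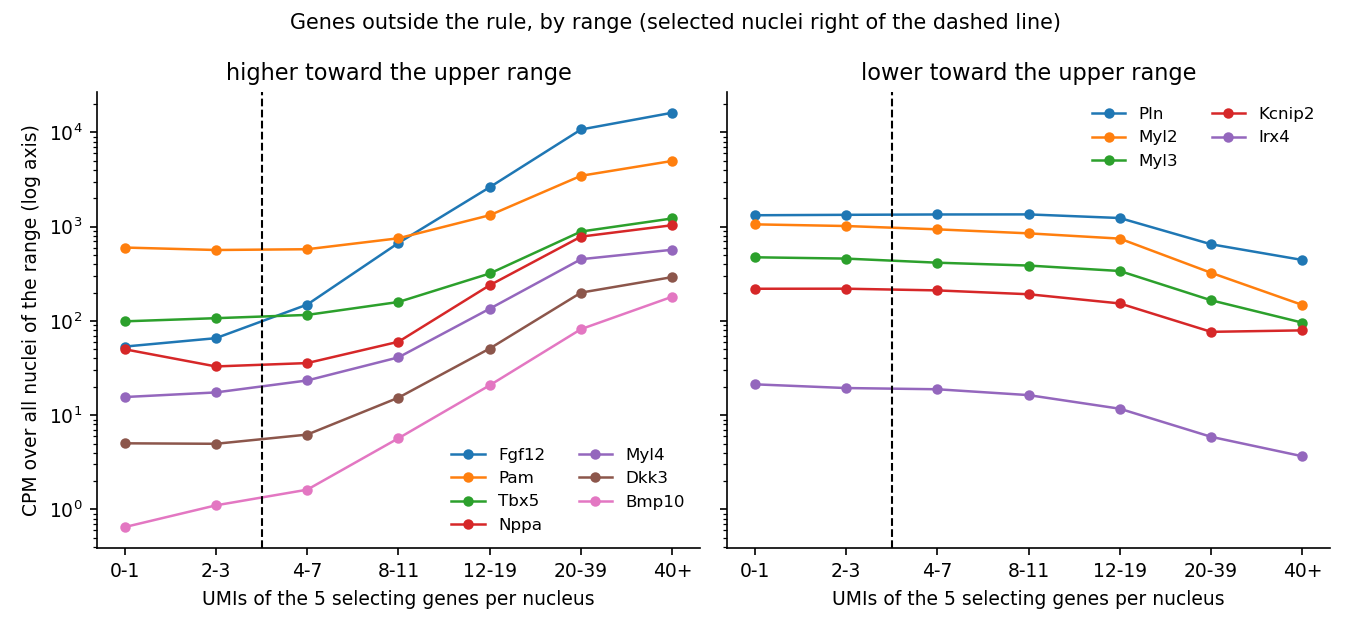
Level in CPM (vertical axis, log scale) of genes outside the rule, by range of UMIs over the 5 rule genes (horizontal axis), summed over the 4 libraries. The left panel holds genes whose level is higher toward the upper range and the right panel genes whose level is lower; the dashed line marks the threshold of 4 UMIs. Nppa and Tbx5 change little up to 7 UMIs, while Fgf12 is higher from 4 UMIs on (53.5 CPM in low nuclei, 149 CPM with 4 to 7 UMIs).

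Detection per nucleus gave the same picture. A UMI of Nppa was found in 421 of 525 upper-range nuclei (80.2%) and in 441 of 2761 lower-range nuclei (16.0%). The share was 10.9% in low nuclei and 9.50% in the 28028 nuclei outside the gate, which include cells that should lack the gene. Median depths were 5012, 5848, 3685 and 1943 UMIs in that order. After thinning each nucleus to 1000 UMIs, Nppa was found in 54.5% of upper-range, 6.34% of lower-range and 3.69% of low nuclei, with 26 shallower low nuclei left out. Myl2 was found in 39.05% of upper-range, 91.7% of lower-range and 94.6% of low nuclei before thinning. On these counts the lower range lies close to the low nuclei, and its Nppa is at a share not far above that outside the gate.

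The promoters of Nppa and Bmp10 are shown because one gene is the secreted product that defines atrial muscle and the other separates the libraries below. The T-box element bound by Tbx5 (TCACACC) and the GATA site (GATAA) were searched on both strands and are in capitals; GGTGTGA and TTATC are their reverse strands. The sequences are the 250 bases before the gene's start on the plus strand, from RefSeq, build GRCm38.p6.
Nppa, chr4:148000472-148000721: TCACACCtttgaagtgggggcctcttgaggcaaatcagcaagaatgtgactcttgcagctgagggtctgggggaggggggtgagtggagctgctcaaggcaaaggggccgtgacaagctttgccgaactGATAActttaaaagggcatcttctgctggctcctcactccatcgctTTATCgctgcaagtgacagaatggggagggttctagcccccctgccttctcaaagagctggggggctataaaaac
Bmp10, chr6:87428744-87428993: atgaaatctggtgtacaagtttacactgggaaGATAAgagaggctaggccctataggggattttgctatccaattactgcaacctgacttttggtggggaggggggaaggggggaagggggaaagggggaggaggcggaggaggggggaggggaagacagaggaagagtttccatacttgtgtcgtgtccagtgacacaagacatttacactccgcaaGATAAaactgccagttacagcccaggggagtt
The Nppa window holds a T-box element 250 to 244 bases before the start and GATA sites at 121 to 117 and, on the minus strand, at 75 to 71. The Bmp10 window holds GATA sites at 218 to 214 and 32 to 28 and no TCACACC or GGTGTGA. Of 32851 promoter windows of this length, 3.33% hold the T-box element and 22.6% the GATA site, and the 2 motifs do not overlap in these windows. These matches describe letters only.

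Upper-range nuclei were compared with the low nuclei of the same heart, as a description, since the rule chose both sets. Ratios are on the log2 scale of CPM with 20 CPM added. Of 6425 genes with at least 50 UMIs in every library in either set, 30 genes had at least 50 UMIs in every upper-range sum and were more than 2-fold higher in each of the 4 libraries (0.467%). A further 15 genes with at least 50 UMIs in every low sum were more than 2-fold lower in each (0.233%). The requirement weighs most on the 20 upper-range nuclei of uninjured-father library 2, so genes of low level could not be counted as higher. When all selected nuclei were compared instead, 10 genes were higher (0.154%) and no gene (0) was lower.

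Fgf12 stood furthest apart in the upper range, and 5 of the 30 higher genes, Myl4, Nppa, Tbx5, Cacna1d and Pam, are on the atrial list. Fgf12, an intracellular partner of sodium channels, stood at 12269, 15856, 11381 and 9088 CPM against 59.8, 74.0, 40.5 and 40.6 CPM in low nuclei, a median log2 ratio of 7.33. Over all selected nuclei its median log2 ratio was 4.89 (4.15 to 5.42 by library). Nppa stood at 616, 1207, 664 and 1069.7 CPM in the upper range and 40.4, 79.9, 30.4 and 46.9 CPM in low nuclei, a median log2 ratio of 3.69. The upper-range sums lay above every low sum for both genes.

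Myosin light chain isoforms differed between the sets. Myl4, the atrial essential light chain, stood at 362, 510.1, 627 and 738 CPM in the upper range against 14.2 to 18.2 CPM in low nuclei (median log2 ratio 4.05). Myl2 stood at 279, 157, 308 and 359.7 CPM against 919, 1089.7, 1039.5 and 1155 CPM (median -1.67). Myl3, the ventricular essential light chain, stood at 148, 109, 145 and 161 CPM against 409, 486, 407 and 596 CPM (median -1.57). Both ventricular light chains were lower in the upper range of every heart, with no overlap of the sets. Myh7b, a further sarcomeric myosin, was among the lowest at a median of -1.86. Of the 25 sarcomere genes measured, 19 had a median ratio below 0, beside 3989 of the 6425 genes measured.

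Of 7 measured genes of peptide storage and release, 5 had a median ratio above 0, beside 2436 of the 6425 genes measured. The median over the 7 was 0.33, against -0.07 over all genes measured. Pam, which amidates peptides and is a main membrane protein of atrial granules, stood at 3508, 4533, 4463 and 4250.4 CPM against 603, 682, 577 and 533 CPM (median log2 ratio 2.80). Corin, the protease that cuts the natriuretic peptide precursor, had a median ratio of 0.70 and stood at 1716 CPM in low nuclei and 3021 CPM at 40 or more UMIs. Nppb, which encodes brain natriuretic peptide, had a median ratio of -0.36 with libraries on both sides of 0. Chga had no UMI in any range.

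Of 10 measured genes of the muscarinic potassium current, 7 had a median ratio above 0, beside 2436 of the 6425 genes measured. The median over the 10 was 0.22, so the members named next are the higher part of the list, apart from Adora1. Chrm2 stood at 4091, 4792, 3872 and 3664 CPM in the upper range against 2096, 2475, 1967 and 1629 CPM in low nuclei (median log2 ratio 0.96). Rgs6, which speeds the closing of these channels, stood at 4748, 4064, 3621 and 3549.9 CPM against 1436, 1059, 1190.4 and 1275 CPM (median 1.65). Gnao1, a G-protein alpha subunit, had a median ratio of 1.90, and Kcnj5, the channel's other subunit, 0.91. Every upper-range sum of Chrm2 and Rgs6 thus lay above every low sum, while Adora1, the adenosine receptor that acts on the same current, had a median of -0.52.

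Calcium channel genes differed by family member. Cacna1d, the L-type channel subunit of atrial and nodal cells, stood at 653, 439, 519.5 and 511 CPM against 56.7, 44.8, 53.4 and 59.0 CPM (median log2 ratio 2.85). Cacna1c, the L-type subunit common to heart muscle, was at a median of -0.70. The T-type subunit Cacna1h was at 2.35 and the accessory subunit Cacna2d2 at 2.03. Pln, the phospholamban gene that brakes the calcium pump, stood at 492, 465, 675 and 975 CPM against 999, 1469, 1291 and 1432 CPM (median -0.95). Atp2a2, the pump itself, was nearly level at 0.13. The pacemaker channel gene Hcn4 was at -0.07.

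Among transcription factors, Tbx5 stood at 844, 1247, 990.1 and 682 CPM against 86.9, 120, 84.3 and 102 CPM, a median log2 ratio of 3.10. Sox5, also a locus of atrial fibrillation risk, was at 3.0. Prdm16, a regulator of ventricular muscle maturation, stood at 213, 83.2, 222 and 284 CPM against 829, 749.7, 789.8 and 655 CPM (median -1.80). The coverage of the atrial list was uneven. All 8 of its members with enough UMIs had a median above 0. Of the 17, 9 were past 2-fold higher in every library, whatever their UMI count in either set. Of the 6425 genes measured, 67 were past 2-fold higher when the requirement on upper-range UMIs was dropped. Kcnk3 was nearly level at 0.13 and Kcna5 was at 0 to 1.14 CPM in each range. The median over the 8 measured atrial genes was 2.83, over the 6 measured ventricular genes -1.18, and over all 6425 genes -0.07. Of the genes higher in the upper range, Tmem163, Lrrc4c, Nav3, Slit3, Plekha7, Arhgap31, Tmem108 and Epha4 belong to no list of heart muscle genes used here, and their medians lay between 2.93 and 5.29. Markers of other cell types were mixed in the upper range. The 7 measured fibroblast markers all had a median below 0 (median -0.44), as did 5 of 7 vascular endothelial markers (median -0.20). Of 3 pericyte markers 2 lay above 0 (median 0.08), and the 1 adipocyte marker was at 0.14. Of 4 measured endocardial markers 1, Tmem108, was past 2-fold higher. Among the exclusion genes, Mrc1 stood at 7.68 CPM in low nuclei and 26.9 CPM with 40 or more UMIs. Pdgfra, Cdh5 and Pdgfrb went the other way, from 9.69, 10.5 and 9.85 CPM to 4.28, 4.89 and 4.28 CPM.

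**Figure D3:**
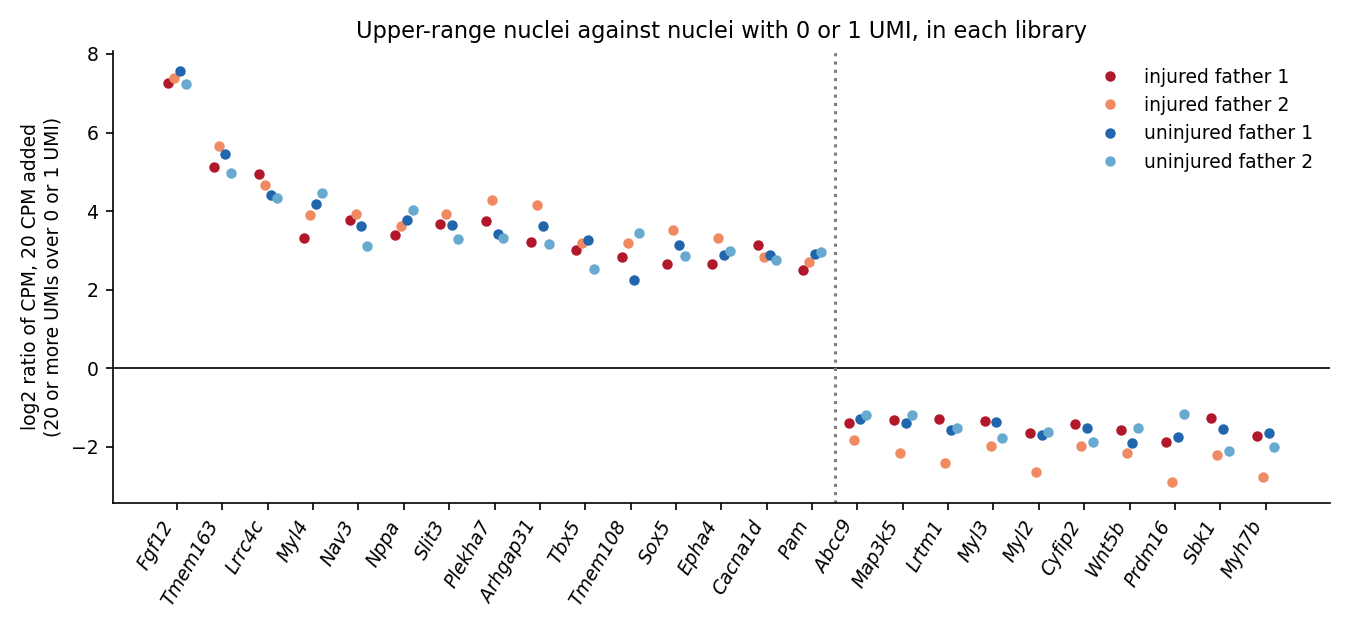
Log2 ratio of CPM with 20 CPM added (vertical axis), upper-range nuclei over low nuclei, for the 15 highest and 10 lowest genes by median ratio (horizontal axis). Each point is 1 library; every point lies past 2-fold on its side, from Fgf12 with a median of 7.33 to Myh7b with a median of -1.86.

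Bmp10 divided the upper range by library. Bmp10 had a UMI in 41 of 133 upper-range nuclei of injured-father library 1 (30.8%, Wilson 23.6 to 39.1) and in 83 of 244 of injured-father library 2 (34.0%, 28.4 to 40.2). It had one in 5 of 20 nuclei of uninjured-father library 2 (25%, 11.2 to 46.9). In uninjured-father library 1 it was found in 0 of 128 (0%, Wilson upper limit 2.91%; a floor of 3 counts allows a share of nuclei with a UMI of up to 2.34%), and its level was under the 3.58 CPM that a count of 0 allows. The lower range held 14, 28, 0 and 8 such nuclei and the low nuclei 3, 7, 0 and 2. Outside the gate there were 38, 111, 3 and 13. Uninjured-father library 1 thus held the fewest nuclei with Bmp10 in each of these sets. Its upper-range nuclei had the highest median depth, 5338 UMIs against 4679, 5268 and 4533.5 in injured-father libraries 1 and 2 and uninjured-father library 2.

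Of the genes of the sinus node, Hcn4 had a UMI in 37 of the 525 upper-range nuclei (7.05%), Shox2 in 16 (3.05%) and Tbx3 in 25 (4.76%). In low nuclei, which are shallower, the shares were 4.78% for Hcn4, 0.163% for Shox2 and 2.93% for Tbx3, and Hcn4 was found in 7.79% of the lower range. After thinning to 1000 UMIs, Hcn4 was found in 1.14% of upper-range and 1.29% of low nuclei, Tbx3 in 0.571% and 0.701%, and Shox2 in 0.571% and 0.0701%. Hcn4 and Tbx3 were thus not found more often in the upper range at equal depth, and the thinned Shox2 share rests on 3 nuclei in each set. Isl1, which marks the sinus node, was found in 0 of 525, which allows a share of up to 0.571%. Outside the gate Shox2 stood at 0.978% and Tbx3 at 6.02%, in nuclei of lower depth. Hcn4 was found there in 0.642%. The 37 nuclei with Hcn4 came as 10, 9, 17 and 1 by library.

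The share of selected nuclei in the cardiomyocyte gate was 39.6% (Wilson 37.5 to 41.7) and 36.3% (34.4 to 38.1) in the injured-father libraries and 35.4% (33.7 to 37.1) and 18.2% (16.7 to 19.9) in the uninjured-father libraries. The group means were 37.9% ± 2.38 (SD, n = 2) and 26.8% ± 12.1 (SD, n = 2), a difference of 11.1 percentage points (exact permutation test, two-sided, p = 0.333, the smallest that 2 libraries against 2 can give). The difference rested on uninjured-father library 2: it was 2.58 points without that library and 19.7 points without uninjured-father library 1. Of all nuclei, the selected ones were 8.99%, 9.02%, 10.4% and 5.34%, a difference of 1.14 points (exact permutation p = 1).

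Upper-range nuclei were 6.40%, 9.26%, 4.18% and 0.857% of the gate, so both injured-father libraries lay above both others. The means were 7.83% ± 2.02 and 2.52% ± 2.35 (SD, n = 2 each), a difference of 5.31 points (exact permutation p = 0.333, again the smallest possible). Depth differed along with these shares, and nuclei of the gate were therefore thinned to 1500 UMIs, which left out 5, 15, 13 and 8 shallower ones. Of the 2055, 2611, 3027 and 2323 that still met the gate, 11.1%, 12.98%, 8.19% and 4.003% had 4 or more UMIs. This is the threshold of the rule at equal depth and not the upper-range share. Of these 228, 339, 248 and 93 nuclei, 121, 237, 115 and 17 were in the upper range before thinning. Among the selected nuclei themselves the upper range made up 16.2%, 25.5%, 11.8% and 4.69%. Whole hearts were processed, and no source used here gives how much atrium entered each library. Its part in these shares was not tested.

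**Figure D4:**
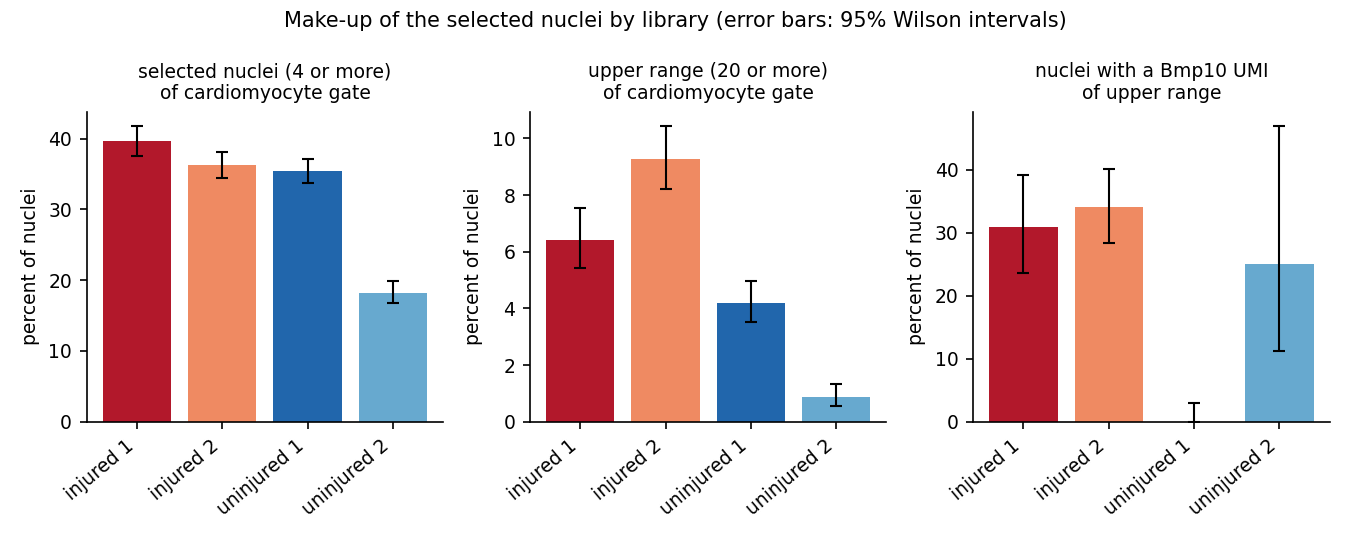
Make-up of the selected nuclei by library: percent of the cardiomyocyte gate selected, percent of the gate in the upper range, and percent of upper-range nuclei with a UMI of Bmp10 (vertical axes). Error bars are Wilson 95% intervals. Uninjured-father library 2 is lowest in the first 2 panels, and uninjured-father library 1 is at 0 in the last.

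The paternal comparison asks whether these nuclei differ with the injury of the father. Counts were summed over the selected nuclei of each heart, so a gene can move because more of the nuclei are of the upper range or because each holds more of its RNA, and these cannot be told apart in the sums. Of 11611 genes tested, edgeR's quasi-likelihood test with Benjamini-Hochberg adjustment called 4 higher (0.0345%) and 0 lower (0%) in offspring of injured fathers at an adjusted p under 0.05. There were 533 genes at an unadjusted p under 0.05. limma-voom called 0 genes, with 540 at an unadjusted p under 0.05, and DESeq2 called 14, all higher. The number called by edgeR also changed when 1 library was left out. The 4 genes are Slc15a2, Mbp, Camk1d and Nav3.

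Slc15a2 (ENSMUSG00000022899), a transporter of small peptides, had 97 and 69 UMIs in the injured-father libraries and 1 and 1 in the uninjured-father libraries. Its summed level was 69.0 times higher (exact counting interval 18.8 to 575). The fitted log2 fold change was 5.97 (SE 0.61, edgeR adjusted p = 0.0102). Low nuclei held 50, 45, 1 and 4 UMIs, with a log2 fold change of 4.47 that edgeR did not call (adjusted p = 0.341). Outside the gate Slc15a2 stood at 39.1, 20.4, 0.404 and 1.12 CPM. It was also called within the lower range, and it lost its call without uninjured-father library 1 (log2 4.97, edgeR adjusted p = 0.0599).

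Camk1d (ENSMUSG00000039145), a calcium/calmodulin-dependent kinase, stood at 3910.2 and 3744 CPM after edgeR's TMM library scaling in the injured-father libraries and at 1799 and 1997 in the uninjured-father libraries. The means were 3827 ± 118 and 1898 ± 140 (SD, n = 2 each), a log2 fold change of 1.01 (SE 0.13, edgeR adjusted p = 0.0331). It was called with each of the 4 libraries left out. In low nuclei the log2 fold change was 1.02 (edgeR adjusted p = 0.341), and outside the gate Camk1d stood at 8312, 6963, 3763 and 3368 CPM. Both injured-father libraries thus lay above both others outside the gate as well as in the selected nuclei.

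Mbp (ENSMUSG00000041607), known for myelin basic protein and also for shorter products of the same gene outside glia, stood at 24.1, 30.2, 6.07 and 6.12 TMM-scaled CPM. The means were 27.2 ± 4.31 and 6.10 ± 0.0331 (SD, n = 2 each), a log2 fold change of 2.16 (SE 0.25, edgeR adjusted p = 0.0144). Its level was tied to the upper range: 2.16 CPM in low nuclei, 2.05 CPM with 4 to 7 UMIs and 118 CPM with 40 or more. Within the upper range alone it stood at 136, 119, 39.4 and 47.3 CPM, a log2 fold change of 1.64 (edgeR adjusted p = 0.132). The 5 Schwann cell markers, summed, stood at 25.1, 17.8, 26.4 and 15.2 CPM in the selected nuclei and overlapped between the groups. The call was lost without uninjured-father library 1 (log2 2.15, edgeR adjusted p = 0.0610).

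Nav3 (ENSMUSG00000020181), a microtubule-binding navigator protein, stood at 185, 234, 98.8 and 81.8 TMM-scaled CPM. The means were 209.6 ± 34.5 and 90.3 ± 12.1 (SD, n = 2 each), a log2 fold change of 1.20 (SE 0.16, edgeR adjusted p = 0.0331). Nav3 is 1 of the 30 genes counted as higher in the upper range, at 828, 834, 557 and 568 CPM there. Its log2 fold change was 0.48 within the lower range, 0.59 within the upper range and 0.09 in low nuclei, so the value over all selected nuclei was larger than within either range. The call was lost without uninjured-father library 2 (log2 1.08, edgeR adjusted p = 0.115).

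**Figure D5:**
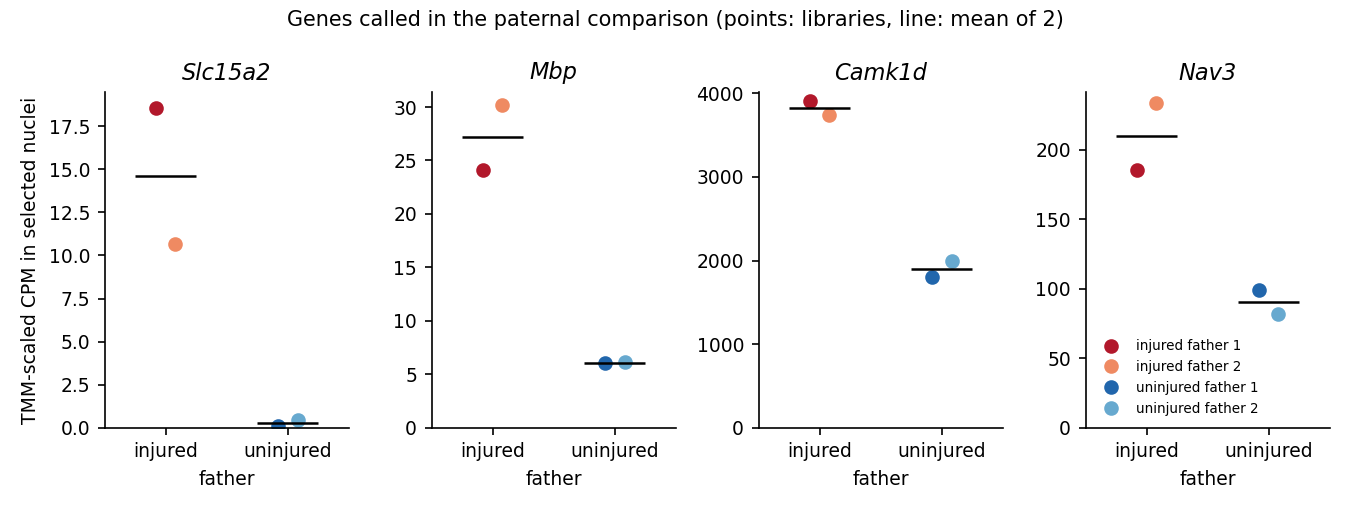
TMM-scaled CPM (vertical axes) of Slc15a2, Mbp, Camk1d and Nav3 in the summed selected nuclei of each library; points are libraries and lines the group means. Both injured-father libraries lie above both uninjured-father libraries for each gene.

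No gene passed in the lower direction, and the 3 with the smallest p are given as values. Myh11, the smooth muscle myosin, had a log2 fold change of -1.86 (edgeR adjusted p = 0.161), Dgkb -1.59 (0.234) and Tcap, a Z-disc protein, -0.68 (0.234). In low nuclei the log2 fold changes of these genes were -0.88, 0.16 and -0.74, in the same order. The smooth muscle marker list summed to 218, 121, 288 and 280 CPM in the selected nuclei, lower in the injured-father libraries like Myh11, and the 3 of its genes tested were all negative. The part of smooth muscle RNA in that value was not tested.

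The atrial and the ventricular genes lay on opposite sides of 0, with no gene called. Of the 17 atrial genes, 15 were tested; 15 had a positive log2 fold change, edgeR called 0, and 11 had an unadjusted p under 0.05, with a median of 0.68 against -0.00 over all 11611 genes. For 9 of the 15, both injured-father libraries lay above both others, beside 15.4% of all genes tested. Of the 9 ventricular genes all 9 were negative with a median of -0.27 and edgeR called 0. Within the lower range, the atrial genes' median was 0.10 with 11 of 15 positive, and within the upper range it was 0.30 with 13 of 15 positive. The share of upper-range nuclei, given above, was higher in both injured-father libraries, and its part in these medians was not tested.

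Single atrial genes did not pass. Nppa stood at 124, 359.7, 126 and 124 TMM-scaled CPM in the selected nuclei, so the groups overlapped and injured-father library 2 alone was high (log2 0.95, edgeR adjusted p = 0.868). Outside the gate Nppa stood at 39.3, 111, 41.1 and 31.0 CPM, again highest in that library. Tbx5 had a log2 fold change of 0.68 (edgeR adjusted p = 0.746) and Fgf12 of 1.19 (0.329). Dkk3, a secreted modulator of Wnt signalling, had 1.55 (0.234) and Cacna2d2 1.08 (0.234). Bmp10 had 3.20 (edgeR adjusted p = 0.540), with uninjured-father library 1 at 0 and the other uninjured-father library at 14.8 CPM.

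None of the other gene groups held a called gene by edgeR or limma-voom in this comparison, and DESeq2 called 1 listed gene, Tmem108. For the muscarinic potassium current 11 of 13 tested genes were positive with a median of 0.15, and Chrm2 stood at 0.41. For peptide storage and release it was 5 of 8 with a median of 0.19. Of the node and conduction genes 6 of 10 were positive, led by the calcium sensor Vsnl1 at 1.74 (edgeR adjusted p = 0.309). Calcium handling genes were negative in 12 of 19 (median -0.12) and sarcomere and Z-disc genes in 23 of 28 (median -0.24), with Lmod2 at -0.70. Fatty acid oxidation genes were positive in 21 of 26 (median 0.22), with the mitochondrial carrier Ucp3 at 0.76 and the kinase Pdk4 at 0.91. The low nuclei had similar values, uncalled as well: Ucp3 was at 1.14, Pdk4 at 0.84 and Lmod2 at -0.67. Cardiac transcription factors were positive in 18 of 24 with a median of 0.08. These counts stand beside 5776 positive of 11611 genes tested.

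The difference of the paternal comparison between selected and low nuclei was tested within hearts, with the library as a block. edgeR's quasi-likelihood test called 35 genes with a larger difference toward injured fathers in the selected nuclei (0.294%) and 8 with a smaller one (0.0673%) of 11890. Of the 35, 2 are genes of the rule (Kcnj3 and Kcnh7), for which the test is void, which leaves 33. Among them are 14 of the 30 genes counted as higher in the upper range. Of the 8, 1 is among the 15 counted as lower there. The share of upper-range nuclei differed between the hearts, and in these sums a different share and a different level per nucleus cannot be told apart. Restricted to the lower range it called 9 genes and to the upper range 1. It called 111 genes without injured-father library 1, 20 without injured-father library 2 and 10 without uninjured-father library 2.

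Slit3, a secreted guidance ligand, stood at 646, 906, 526 and 363 TMM-scaled CPM in selected nuclei and at 174, 173, 182 and 159 in low nuclei (difference on the log2 scale 0.78, edgeR adjusted p = 4.64e-08). Plekha7, an adherens junction protein, stood at 156, 284, 120 and 88.6 against 29.0, 32.5, 36.4 and 29.1 (1.20, edgeR adjusted p = 1.23e-07). In both, the low nuclei were nearly level and the selected nuclei carried the difference. From these CPM, the log2 ratio of selected over low nuclei was 1.9, 2.4, 1.5 and 1.2 by library for Slit3. For Plekha7 it was 2.4, 3.1, 1.7 and 1.6, so hearts of the same group also differed among themselves. Daam2, a formin, stood at 77.7, 113, 40.5 and 37.7 against 18.1, 17.5, 18.0 and 18.7 (1.36, edgeR adjusted p = 9.16e-06). Of the 20 genes that the naming rule takes from this test, Slit3, Plekha7 and Grip1 were called with each library left out. Of the atrial list, Tbx5 (0.48, edgeR adjusted p = 0.0190), Dkk3 (1.44, 0.0190) and Cacna1d (0.51, 0.0236) were called, and of the muscarinic list Gnao1 (0.67, 0.00526).

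In the other direction, Slit2 stood at 54.5, 61.9, 85.9 and 84.2 TMM-scaled CPM in selected nuclei and at 69.1, 71.9, 68.0 and 46.8 in low nuclei (-0.79, edgeR adjusted p = 0.000372). Dgkb, a diacylglycerol kinase, stood at 5.43, 5.21, 19.8 and 10.2 against 6.63, 5.38, 6.07 and 4.41 (-1.70, edgeR adjusted p = 0.0162). For both genes the uninjured-father libraries were higher in the selected nuclei, and neither value kept its sign in the upper range alone. Kcnma1, a calcium-activated potassium channel, stood at 4.46, 2.84, 3.27 and 20.4 against 7.24, 6.15, 3.21 and 4.19 (-2.26, edgeR adjusted p = 0.00822), and its selected nuclei were high in uninjured-father library 2 alone. Its value was 4.06 in the upper range alone, and without uninjured-father library 2 it was -0.94 and was not called.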

How the data were processed

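Single-nucleus RNA was sequenced from 4 whole hearts, 1 per library. Per the file headers, the authors ran Cell Ranger 6.0.1, and the deposited values are whole, unnormalized UMI counts for 21884 genes in each barcode. Seurat 4.0 is listed in the submitters' processing notes, and the genome build is not given in the sources used here.

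Barcodes with at least 500 UMIs, at least 300 genes and under 5% mitochondrial UMIs were kept, which left 9152, 10588, 10418 and 7976 nuclei of 9687, 10973, 10852 and 8184 deposited barcodes. Doublets were marked with Scrublet (scanpy 1.11.5) and kept. The members and gene lists were chosen with earlier results of these data known, and the limit of 20 UMIs after seeing the values.

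Counts were summed per library and set of nuclei. Genes were filtered with filterByExpr (minimum count 10), scaled by TMM and tested with edgeR 4.0.16 (quasi-likelihood test, Benjamini-Hochberg adjustment over all genes tested, threshold 0.05) in R 4.3.3. limma 3.58.1 (voom) and DESeq2 1.42.0 were alternatives. All tests were two-sided. Standard errors are derived from the F statistic. The paternal test was checked on counts simulated with the same dispersion for every gene. The interaction test was not checked in this way. Other work was done in Python 3.11.15 with scipy 1.17.1, numpy 2.4.6, statsmodels 0.14.6, pandas 2.3.3 and matplotlib 3.10.9.

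Genes named are those past the threshold whose libraries do not overlap between the groups, up to 12 per direction by adjusted p, or the 3 smallest p where fewer than 3 passed. Of a gene list, at most 4 called members are named, or at most 2 by smallest p where none was called. Levels may be named for the atrial, ventricular and node lists and for the 4 highest members of other lists. For the upper range, the 15 highest and 10 lowest genes by median ratio are named. Adora1, Nppb and Mbp's levels by range were added after their values had been seen.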

Additional observations from a re-analysis of the deposited data

Results flagged for a closer look

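The paternal comparison differed between selected nuclei and low nuclei of the same hearts for 20 named genes by the interaction term of edgeR's quasi-likelihood test. The differences on the log2 scale, injured minus uninjured fathers, were positive for Slit3 (0.78), Plekha7 (1.20), Psd3 (0.64), Daam2 (1.36), Nav3 (1.07), Erbb4 (0.32), Grip1 (0.90), Cacna2d3 (0.99), Rp1 (0.56), Angpt1 (0.41), Tmem108 (0.64) and Podn (1.03). They were negative for Slit2 (-0.79), Kcnma1 (-2.26), Thsd7a (-0.65), Dgkb (-1.70), Adra1a (-0.39), Plxdc2 (-0.45), Creb5 (-0.40) and Ephb1 (-0.85). Of the 12 positive genes, Slit3, Plekha7, Psd3, Nav3, Erbb4, Rp1, Angpt1 and Tmem108 are also among those counted as higher in the upper range. The share of upper-range nuclei among the selected ones was 16.2%, 25.5%, 11.8% and 4.69% by library, and its part in these differences was not tested.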

How the results depend on the processing

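The number of genes called in the paternal comparison was 4. It was 136 with no filter on low counts, 2 at a minimum count of 30, 0 with limma-voom (540 at an unadjusted p under 0.05), 14 with DESeq2, 0 with 8 or more UMIs required (491 unadjusted), 1 in the lower range alone and 0 in the upper range alone (355 unadjusted), and 5 to 160 with 1 library left out. The range limits were chosen after seeing the data. With the replicate number as a block it was 2; samples with the same number did not pair (correlation of deviations 0.059 over 5625 genes). The interaction, called for 43 genes, gave 66 with no filter, 0 with 8 or more UMIs (515 unadjusted), 9 with 0 exclusion UMIs, 10 with thinned sums, 9 in the lower range, 1 in the upper range, 10 to 111 with 1 library left out and 0 with no library block (120 unadjusted). The cause was not tested. The count of genes past 2-fold rose from 10 to 45 in the upper range alone. The difference in share was 1.14 to 11.4 points over the settings that keep all 4 libraries and 2.58 to 19.7 points with 1 library left out, in 1 direction.

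Direction reversed for Angpt1 (-0.010) and Tmem108 (-0.13) in the lower range alone, and for Slit2 (0.062), Kcnma1 (4.06) and Dgkb (0.66) in the upper range alone. Of the other values for single genes, 236 kept their direction and their side of the threshold, 159 fell short of it and 9 came to pass it. Left-out fits with a lone library assume that it varies like the other group. The 20 upper-range nuclei of uninjured-father library 2 limit the precision there.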
